A study of Mus musculus with 4 samples.

Results

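Kitl, the gene of Kit ligand (also called stem cell factor), and Kit, the gene of its receptor, were followed through the cell classes, neuron subtypes and stages of the developing mouse superior colliculus. They are 2 of the 31053 genes in the deposited matrix, were picked by symbol, and each occurred once. Values of these libraries were in view when the pair was chosen, Kitl for its higher level in excitatory neurons at P4 than at E19, so the levels of both genes by class, subtype and stage are a description and carry no test. Nuclei came from the superior colliculus, a visual and sensorimotor centre of the midbrain, of C57BL/6J mice with no genetic change or treatment given. Stages were E19, before birth, and P4, P8 and P21, counted in postnatal days. Each was 1 library made from the pooled tissue of an unstated number of animals, so no stage has a replicate, and age cannot be told apart from the library.

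Kit is a receptor tyrosine kinase. Kit ligand is made as a membrane-anchored protein that acts between touching cells or is cut off to act at a distance, and binding pairs 2 receptors, which then signal through Src-family kinases, phosphoinositide 3-kinase and the Ras cascade. The pair is best known for the survival and migration of blood stem cells, mast cells, melanocytes and germ cells. In the brain, Kit is known in subsets of interneurons, among them the molecular layer interneurons of the cerebellum, while Kit ligand is known in projection neurons that such interneurons contact and in endothelium.

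Kitl (ENSMUSG00000019966) lies on chromosome 10, from 100015630 to 100100416 on the plus strand of mm10, and spans 84787 bases. Kit (ENSMUSG00000005672) lies on chromosome 5, from 75574916 to 75656722 on the plus strand, and spans 81807 bases. The annotation lists 4 protein-coding transcripts for Kitl and 2 for Kit, and 0 other genes overlap either. Counts were summed per gene, so transcripts of the same gene, and thus membrane-bound and shed forms of the ligand, were not separated.

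The libraries held 2249 to 2585 nuclei each, with median depths from 6828 unique molecular identifiers (UMIs) per nucleus at E19 to 11745 at P21. Kitl gave 688, 2437, 1403 and 1227 UMIs at E19, P4, P8 and P21, and Kit gave 1100, 1009, 1442 and 950. Levels below are UMIs scaled to 1000000 of the same profile (CPM) with a 95% interval for counting error only. Nuclei with a UMI of Xist, which silences one X chromosome in females, made up 0.967%, 46.0%, 40.7% and 68.1% of all nuclei in stage order, and the part of the sex make-up of the pools in any stage difference was not tested.

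Excitatory neurons carried several times more Kitl than inhibitory neurons in all 4 libraries. In stage order, the excitatory level was 47.8 (43.9 to 51.9), 139 (133 to 145.5), 79.5 (74.7 to 84.4) and 69.2 CPM (65.02 to 73.6). The inhibitory level was 10.2 (7.83 to 13.1), 25.5 (21.8 to 29.8), 15.5 (13.3 to 18.02) and 9.38 CPM (7.68 to 11.3). Excitatory levels were thus 4.67-fold, 5.46-fold, 5.12-fold and 7.38-fold higher in stage order, and the counting intervals of the classes did not overlap at any stage. A Kitl UMI was found in 11.96%, 38.4%, 32.9% and 42.8% of excitatory nuclei, at median depths from 8051.5 to 19601 UMIs, and after thinning each nucleus to 2300 UMIs in 6.24%, 19.0%, 13.7% and 13.4%. In myelinating oligodendrocytes of P21 the share was 1.60% at a median of 7860 UMIs, and 0.464% thinned. This group was among the lowest in Kitl and comes from the P21 library, so it sets no background for the other stages.

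The P4 library stood highest for Kitl in both classes. From E19 to P4 the log2 ratio was 1.45 in excitatory neurons (1.33 to 1.58) and 1.003 in inhibitory neurons (0.69 to 1.31). In these comparisons 0.472% and 0.436% of all genes with 20 CPM or more were higher by 1 or more on the log2 scale. The next step was negative in both classes, at −0.77 (−0.88 to −0.67) in excitatory and −0.57 (−0.82 to −0.32) in inhibitory neurons. From P8 to P21 it was −0.19 and −0.51. Of all genes, 0.361% in excitatory and 0.136% in inhibitory neurons were higher by 1 or more from P4 to P8, and 0.832% and 0.382% lower. From P8 to P21, 2.15% and 2.62% were higher, and 3.2% and 3.28% lower. Inhibitory Kitl, at 15.5 CPM at P8 and 9.38 CPM at P21, lay under the 20 CPM minimum of these shares at that step. These shares are given beside the values only, because the same contrasts served to choose the genes.

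The excitatory values turned on a subtype that came mostly from the P4 library. EN7 held 33 nuclei at E19, 191 at P4, and 1 each at P8 and P21. Without it, excitatory Kitl was 28.7 CPM at E19, 51.98 CPM at P4, 79.4 CPM at P8 and 68.5 CPM at P21, so that the highest library was P8 instead of P4. The step from E19 to P4 was then 0.76 (0.59 to 0.93), and that from P4 to P8 changed sign, to 0.57 (0.43 to 0.70). Without EN7, 0.296% of all genes were higher by 1 or more at the first step and 0.223% at the second. At the last step 2.15% were higher and 3.21% lower. Of the 91.6 CPM by which P4 exceeded E19 in the full class, 101 CPM came from the different weights of the subtypes. Levels within subtypes gave −9.22 CPM. EN7 alone gave 100.1 CPM by its weight and −22.9 CPM by its level. Beyond counting error, Kitl was higher at P4 in 6 excitatory subtypes and lower in 2, EN6 and EN7. With every subtype weighted alike, the step from E19 to P4 was −0.16. The gap to inhibitory neurons was also narrower without EN7, with a log2 ratio of inhibitory over excitatory neurons of −1.15 at E19 and −0.90 at P4.

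**Figure D1:**
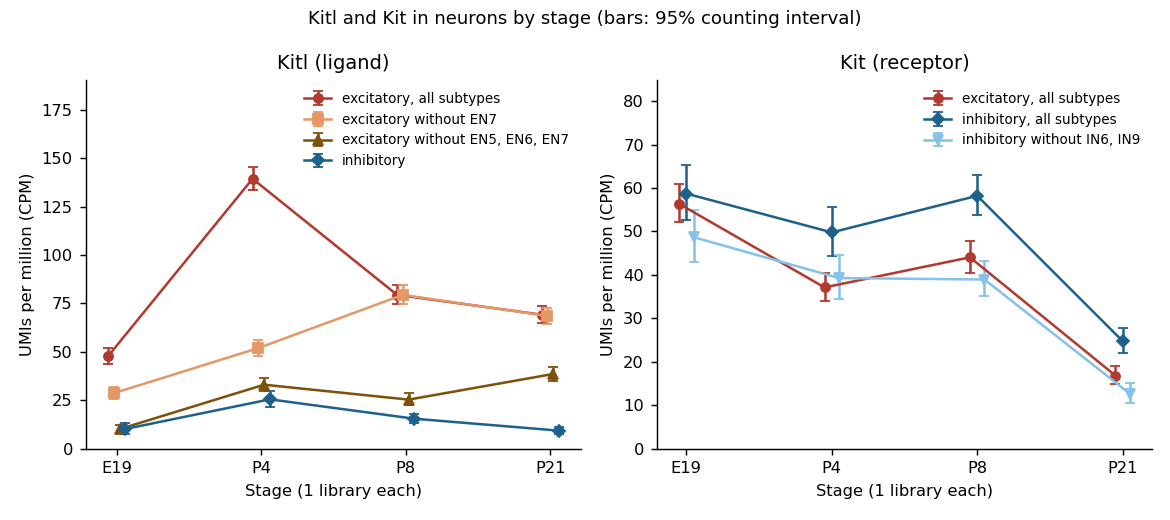
Levels of Kitl (left) and Kit (right) in CPM against stage, with 95% counting intervals and 1 library per stage. Excitatory Kitl stands at 139 CPM at P4 with all subtypes and at 51.98 CPM without EN7, and Kit is lowest at P21 in every line.

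EN7 was checked against a list of 7 genes known from thalamic neurons, because the thalamus borders the dissected tissue. The summed level of the list was 5773 CPM in EN7 and from 233.6 CPM in IN12 to 2826.5 CPM in IN2 among the other neuron subtypes. In EN7 the list was led by Ntng1 at 3486 CPM, which made up most of the sum, and Tcf7l2 at 1483 CPM. Lef1 stood at 503 CPM, Synpo2 at 213 CPM, Plekhg1 at 69.4 CPM, Prkcd at 13.4 CPM and Gbx2 at 4.79 CPM. All 7 genes were detected in EN7, but also in other subtypes, among them EN1, EN2, IN1 and IN2. The part of neighbouring tissue in the excitatory Kitl level was not tested.

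Kitl was concentrated in EN5, EN6 and EN7. EN7 had the highest neuronal level, 736 CPM (644 to 838) in the E19 and 521 CPM (494 to 548.5) in the P4 library, and a Kitl UMI was found in 100% of the 33 nuclei at E19 and in 95.8% of the 191 at P4. The 2 later EN7 nuclei held 1 UMI at P8 and 12 at P21. EN6 was next, with 694 (584 to 819), 482 (410.2 to 563), 414 (377.5 to 453) and 279 CPM (247 to 312) in stage order. Its log2 ratio from E19 to P21 was −1.30 (−1.59 to −1.005), made up of lower values from E19 to P4 and from P8 to P21, while that from P4 to P8 was within counting error, at −0.22 (−0.47 to 0.046). In EN5 the level was 254 CPM at E19, 211 CPM at P4, 216 CPM at P8 and 204 CPM at P21, and the 4 intervals overlapped.

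Together these 3 subtypes held most of the Kitl UMIs of neurons in 3 of the 4 libraries. At E19 they held 72.2% of neuron Kitl UMIs in 4.66% of neuron nuclei, at P4 75.97% in 14.3%, at P8 63.8% in 10.5% and at P21 47.6% in 9.56%. The other subtypes had a median of 9.44 CPM at E19, 24.0 CPM at P4, 10.5 CPM at P8 and 13.1 CPM at P21. At E19 the gap was clear, since EN5, the lowest of the 3, stood at 254 CPM and the next subtype, IN2, at 23.1 CPM. The order between EN7 and EN6 was within counting error at both stages where both had 20 nuclei or more.

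Within the 3 subtypes most nuclei carried the transcript, and the number per nucleus varied widely. Of 236 EN6 nuclei over all stages, 48 had 0 Kitl UMIs, 96 had 5 or more, and the highest had 35. Of the 191 EN7 nuclei at P4, 8 had 0 and 127 had 5 or more. EN5 was lower, with 61 of 261 nuclei at 0 and 52 at 5 or more. The share with a UMI moves with depth. EN6 went from 73.3% at E19 to 79.7% at P21 while its median depth went from 6069.5 to 15852.5 UMIs. After thinning it was 61.8% and 38.3%, in the same order as the CPM.

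**Figure D2:**
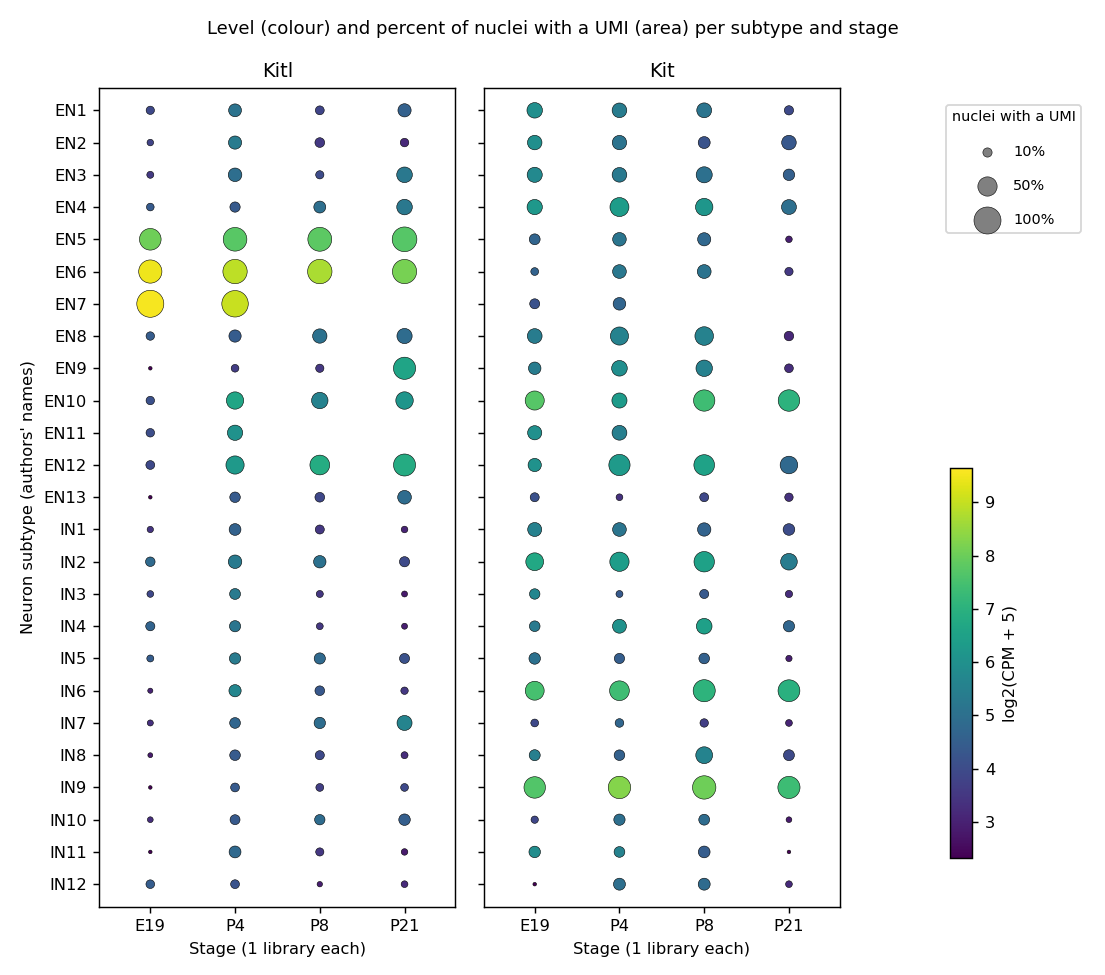
Kitl (left) and Kit (right) in 25 neuron subtypes (rows) at 4 stages (columns), for profiles of 20 or more nuclei. Colour gives log2(CPM + 5) and area the percent of nuclei with a UMI; EN5, EN6 and EN7 stand out for Kitl, at 204 CPM or more, and IN9, IN6 and EN10 for Kit.

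Several other excitatory subtypes had little Kitl at E19 and more later. EN9 had 0 Kitl UMIs in its 30 nuclei of E19, 2 in the 31 of P4, 7 in the 78 of P8 and 78 in the 45 of P21. Its level at P21 was 92.1 CPM (72.8 to 115), with a UMI in 66.7% of nuclei, and it differed from P8 (6.37 CPM) by 3.09 on the log2 scale (2.35 to 3.76). EN12 stood at 10.3 CPM at E19, 70.8 CPM at P4, 108 CPM at P8 and 107 CPM at P21. EN10 stood at 12.6 CPM at E19, 93.7 CPM at P4, 41.8 CPM at P8 and 64.9 CPM at P21. These late profiles overlapped each other at P21, where EN12, EN9 and EN10 followed EN6 and EN5 in the order of levels. When EN5, EN6 and EN7 were left out, excitatory neurons still had 10.2 CPM at E19 and 38.6 CPM at P21, a log2 ratio of 1.52 (1.30 to 1.74). At E19 this remainder stood level with the 10.2 CPM of inhibitory neurons, with overlapping intervals, while at P4 and P8 it was at 33.1 and 25.4 CPM.

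Among inhibitory subtypes no profile of Kitl exceeded 46.2 CPM. IN7 was the one whose level was higher at P21 than at P8 beyond counting error, with 5.20 CPM at E19, 21.02 CPM at P4, 25.4 CPM at P8 and 44.5 CPM at P21. IN2 went the other way at the end, from 28.3 CPM at P8 to 10.8 CPM at P21. The remaining inhibitory subtypes did not differ beyond counting error between P8 and P21.

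Several groups with little Kitl, though not all, also stood higher at P4 than at its neighbours in time. EN1 was at 10.3 CPM at E19, 29.2 CPM at P4 and 9.16 CPM at P8, and IN6 at 3.32, 46.2 and 14.8 CPM. Astrocytes, which are not neurons, were at 20.5 CPM at E19, 49.5 CPM at P4 and 19.4 CPM at P8. Other groups with little Kitl were not highest at P4, among them EN4, at 16.0, 15.7 and 26.6 CPM in the same order. EN8 stood at 17.0, 16.6 and 28.4 CPM, and IN7 and IN10 were also higher at P8 than at P4. From P4 to P8, 4 of 11 excitatory and 4 of 12 inhibitory subtypes were lower beyond counting error, and EN12 alone was higher. In the same P4 library EN7 supplied 59.3% of all Kitl UMIs, against 33.3% at E19 and 0.0713% at P8. The summed thalamic list is given for a few of these groups only. At E19, P4 and P8 it was 803, 1422 and 580 CPM in IN1, where Kitl was 5.97, 19.1 and 6.48 CPM. In EN1 the list was at 2051, 2362 and 1839 CPM, and in astrocytes at 1527, 1738 and 1654 CPM. It was thus highest at P4 in these groups, but differed less between stages than Kitl. In EN2, where Kitl was 8.95, 35.4 and 6.69 CPM, the list was at 3044, 2247 and 1669 CPM. The part of free RNA in these low levels was not tested.

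The receptor was distributed more evenly over the neuron classes. In stage order, Kit stood at 56.4 (52.1 to 60.9), 37.1 (34.1 to 40.4), 44.05 (40.5 to 47.8) and 16.8 CPM (14.8 to 19.1) in excitatory neurons. Inhibitory neurons had 58.7 (52.7 to 65.2), 49.8 (44.5 to 55.6), 58.2 (53.8 to 62.9) and 24.8 CPM (21.96 to 27.8). The log2 ratio of inhibitory over excitatory neurons was 0.054 at E19, with an interval that included 0, and 0.38 at P4, 0.37 at P8 and 0.45 at P21, with intervals above 0. These ratios turned in part on IN6 and IN9, inhibitory subtypes rich in Kit. Without them, and with all excitatory subtypes kept, inhibitory neurons stood at 48.7, 39.3, 38.9 and 12.7 CPM, which was below the excitatory level at E19, P8 and P21 and above it at P4.

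Kit was lowest at P21 in both classes. From P8 to P21 the log2 ratio was −1.17 in excitatory neurons (−1.34 to −0.99) and −1.09 in inhibitory neurons (−1.26 to −0.91). In these comparisons 3.2% and 3.28% of genes with 20 CPM or more were lower by 1 or more. Unlike the excitatory Kitl step from E19 to P4, these came mostly from levels within subtypes. Of the excitatory difference of −27.2 CPM, −28.1 CPM came from levels and 0.918 CPM from weights, and of the inhibitory difference of −33.4 CPM the parts were −28.4 and −5.08 CPM. A difference at this step beyond counting error was seen in 7 of 11 excitatory and 8 of 12 inhibitory subtypes with 20 nuclei or more at both stages. All of these were lower at P21, and in 0 subtypes was Kit higher beyond counting error. In EN2 it stood at 13.4 CPM at P8 and 14.9 CPM at P21.

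The lower level at P21 was seen in subtypes of very different Kit content. EN12 stood at 87.6 CPM at P8 and 22.9 CPM at P21, EN9 at 40.9 and 4.72 CPM, and IN4 at 83.2 and 21.15 CPM. In EN1, the subtype with most excitatory nuclei at E19, Kit was 56.8 CPM at E19, 36.2 CPM at P4, 30.5 CPM at P8 and 10.6 CPM at P21, each lower than the one before, although the interval from P4 to P8 included 0.

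The highest Kit levels were found in IN9, IN6 and EN10. In stage order, IN9 stood at 195 (131.5 to 278), 307 (217.5 to 422), 258 (220.0 to 300.3) and 157 CPM (124 to 197). IN6 stood at 172 (129 to 226), 160.0 (117 to 214), 129 (106 to 156.5) and 121 CPM (94.97 to 151). EN10 was more variable, with 205 CPM at E19, 73.8 CPM at P4, 161 CPM at P8 and 126 CPM at P21. At P4 EN10 ranked below IN2 and EN4, within counting error. From P8 to P21 the interval of the log2 ratio included 0 in IN6, at −0.097 (−0.52 to 0.32), and in EN10, at −0.34 (−0.81 to 0.13), whereas IN9 was lower, at −0.70 (−1.09 to −0.31).

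These 3 held a larger share of Kit at the later stages. They supplied 14.7%, 13.8%, 28.3% and 41.6% of neuron Kit UMIs in stage order, from 6.05%, 6.38%, 9.87% and 9.001% of neuron nuclei. The median of the other subtypes was 37.7 CPM at E19, 32.1 CPM at P4, 25.8 CPM at P8 and 5.96 CPM at P21. A Kit UMI was found in 69.4% of the 173 IN9 nuclei, 59.03% of the 227 IN6 nuclei and 47.8% of the 180 EN10 nuclei over all stages. In microglia, which should lack the gene, the share was 2.22%, at a median depth of 3219 UMIs against 7933 to 8916 in the 3 subtypes. After thinning the shares were 38.1%, 26.3% and 22.9%, against 1.37% in microglia.

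Ligand and receptor peaked in different subtypes. Over the 96 subtype and stage profiles of 20 or more nuclei, which share libraries and depth within a stage, Pearson's r of log2(CPM + 5) between Kitl and Kit was −0.074, and it was −0.045 over the 94 profiles without EN7. In the ligand-rich EN5, Kit was 20.9 CPM at E19, 31.1 CPM at P4, 22.3 CPM at P8 and 2.67 CPM at P21. In EN6 it was 19.8, 33.1, 29.5 and 6.70 CPM, and in EN7 12.9 CPM at E19 and 20.9 CPM at P4. At E19 EN6 was below the median of the subtypes outside IN9, IN6 and EN10 (37.7 CPM). At the later stages EN6 was above that median (32.1, 25.8 and 5.96 CPM). The receptor-rich IN9 had 0 Kitl UMIs in 32 nuclei at E19, which allows up to 23.96 CPM by its interval, and at most 16.2 CPM later.

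**Figure D3:**
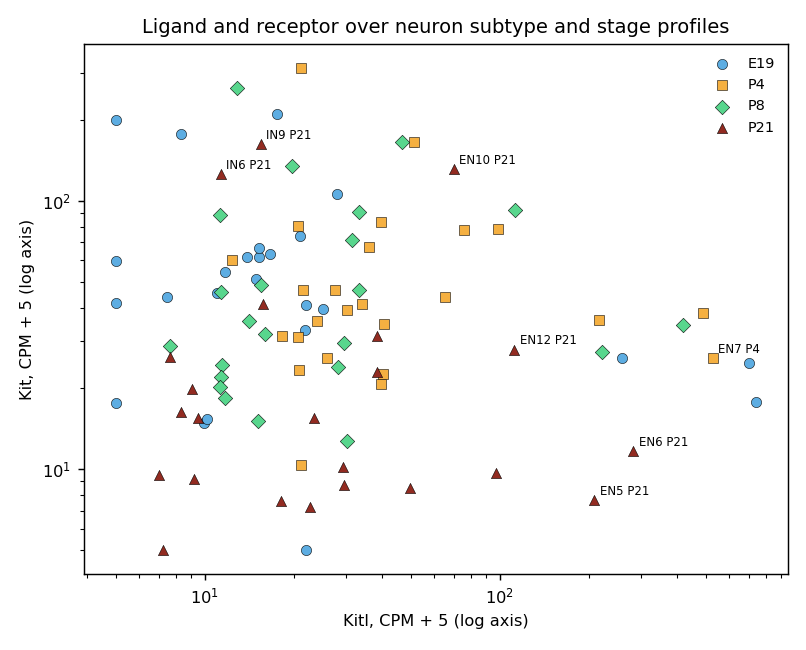
Kit against Kitl in 96 neuron subtype and stage profiles, both as CPM + 5 on log axes, with stages as colours and markers. The ligand-rich EN5, EN6 and EN7 lie at the right, with Kit up to 33.1 CPM, which is within the range of most other subtypes. IN9 and IN6 lie at the top, with Kitl up to 46.2 CPM, and r of log2(CPM + 5) is −0.074.

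EN10 and EN12 held both transcripts, but so did other groups. Over all stages, nuclei with a UMI of each were also found in the ligand-rich subtypes. These were 42 of 226 nuclei in EN7, 32 of 261 in EN5 and 27 of 236 in EN6. In IN2 they were 43 of 504, and in endothelial cells 15 of 62. In EN12 over all stages, 76 of 158 nuclei had a Kitl UMI, 78 had a Kit UMI and 43 had both. In EN10, 55 of 180 nuclei had Kitl, 86 had Kit and 26 had both, and the overlap differed between libraries. At P4, a Kit UMI was found in 8.33% of the 24 EN10 nuclei with Kitl (1.03 to 27.0) and in 44.4% of those without (27.9 to 61.9). At P21 it was found in 92.3% of the 13 with Kitl (64.0 to 99.8) and in 42.1% of those without (20.3 to 66.5). Thinned to 2300 UMIs, the shares were 2.67% and 13.96% at P4, where median depths were 7918 and 8069.5 UMIs. At P21 they were 33.3% and 22.01%, a smaller gap than before thinning, and nuclei with Kitl were deeper there, at a median of 18556 against 14711 UMIs. Across all excitatory nuclei the shares were 25% with Kitl and 29.3% without, and across all inhibitory nuclei 26.1% and 25.9%, where nuclei with Kitl were deeper (13359 against 10832 and 9529 against 8713.5 median UMIs). After thinning they were 5.58% and 8.85% in excitatory and 10.7% and 10.06% in inhibitory nuclei.

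Outside neurons, Kitl was highest in endothelial cells, which line blood vessels. The 62 endothelial nuclei held 38 Kitl UMIs in 13 nuclei at E19, 109 in 22 at P4, 103 in 15 at P8 and 32 in 12 at P21. At P4, the stage with 20 nuclei or more, this was 476 CPM (391 to 574), and over all stages 464 CPM (411 to 521). The P4 value stood beside the 482 CPM of EN6 and came from few nuclei. Over all stages, 26 of the 62 had 0 UMIs, 12 had 5 or more, and the highest had 32. The label was borne out by its markers, since Cldn5 stood at 2267 CPM and Flt1 at 2808 CPM in the class.

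The class labelled epithelial came next, at 182 CPM (129 to 250.3) in the P8 and 153 CPM (110.1 to 207) in the P21 library, with 3 UMIs in 13 nuclei at E19 and 13 in 17 at P4. Of its 3 epithelial markers, Ttr gave 15 UMIs in 102 nuclei, Foxj1 3 and Folr1 0. Col1a2 stood at 384 CPM, and the genes highest relative to all other nuclei were Slc47a1, Itgbl1 and Adamtsl3, at 1118, 1659 and 1809 CPM against 0.525, 10.2 and 12.5 CPM. The data thus went against the label, and the class is called by its leading genes or its label only.

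Astrocytes held less Kitl, and more in the fibrous than in the protoplasmic subtype. Fibrous astrocytes stood at 36.7 CPM at E19, 93.1 CPM at P4, 54.5 CPM at P8 and 22.0 CPM at P21. Protoplasmic astrocytes stood at 16.3, 36.98, 11.8 and 5.003 CPM. Both were highest at P4, and fibrous astrocytes were above protoplasmic ones at each stage, with overlapping intervals at E19 and P21. Kitl was lowest in the late oligodendrocyte lineage, with 0 UMIs in 55 committed and 3 in 187 myelinating oligodendrocytes at P21. The 550 oligodendrocyte-lineage nuclei held 20 Kitl UMIs in all. Microglia, the immune cells of the brain, were not among the lowest by level, although their 90 nuclei held 25 UMIs. From P4 to P21 their level was 96.4 (38.8 to 199), 39.5 (8.15 to 115.5) and 90.03 CPM (43.2 to 166), with 5 UMIs in 13 nuclei at E19, and these wide intervals overlapped.

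Outside neurons, Kit was highest in vascular leptomeningeal cells, the fibroblast-like cells of the meninges. The level in stage order was 186 (134 to 253), 169 (134 to 209), 197 (160 to 241) and 274 CPM (241 to 310). At P21 it was higher than at each earlier stage beyond counting error, with log2 ratios of 0.54 (0.075 to 1.04) to E19, 0.68 (0.33 to 1.05) to P4 and 0.46 (0.13 to 0.81) to P8, and it thus differed in direction from the neuron classes at the last step. A Kit UMI was found in 61.1%, 51.3%, 64.3% and 69.8% of these nuclei. At P21 the share after thinning was 41.95% at a median depth of 6228 UMIs, against 0.618% in astrocytes (1.39% unthinned), at a median of 5525 UMIs. They made up 6.18% of nuclei and supplied 26.4% of all Kit UMIs in the P21 library, against 1.39% and 3.73% at E19.

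Mast cells and melanocytes, which carry Kit, were looked for in this class. The 6 mast cell genes gave 1 UMI in all 323 nuclei, from Mcpt4, with Cpa3, Tpsb2, Cma1, Ms4a2 and Fcer1a at 0. Of the 5 melanocyte genes, Pmel gave 5 UMIs, Dct and Tyr 1 each, and Tyrp1 and Mlana 0. The class carried its own markers, Col1a2 at 851 CPM and Col1a1 at 638.5 CPM, and also Slc1a3 at 1700.0 CPM, which astrocytes share. Kitl in the same nuclei was 13.6, 22.3, 12.5 and 7.63 CPM.

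In the oligodendrocyte lineage Kit was present at the first and last steps and nearly absent between them. In stage order, oligodendrocyte precursors stood at 110.2 (68.2 to 168), 149 (96.2 to 219), 125 (96.2 to 159.5) and 70.1 CPM (43.4 to 107). Committed oligodendrocytes, the next step of the lineage, held 1 Kit UMI in 101 nuclei over all stages. Myelinating oligodendrocytes at P21 held 133 UMIs in 187 nuclei, which was 84.9 CPM (71.05 to 101). The committed nuclei of the same P21 library had 0 UMIs in 55 nuclei, at a median depth of 8510 UMIs against 7860, and an upper interval of 7.59 CPM.

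Kit in myelinating oligodendrocytes was found in 39 of the 187 nuclei of this library, and the other 148 had 0 UMIs. Of the 39, 12 had 1 UMI, 17 had 2 to 4 and 10 had 5 or more, up to 15 in 1 nucleus. In precursors the UMIs were spread thinly, with 68 of 261 nuclei at 1, 25 at 2 to 4 and 0 at 5 or more. Weighting each nucleus alike gave 70.0 CPM for the myelinating profile.

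**Figure D4:**
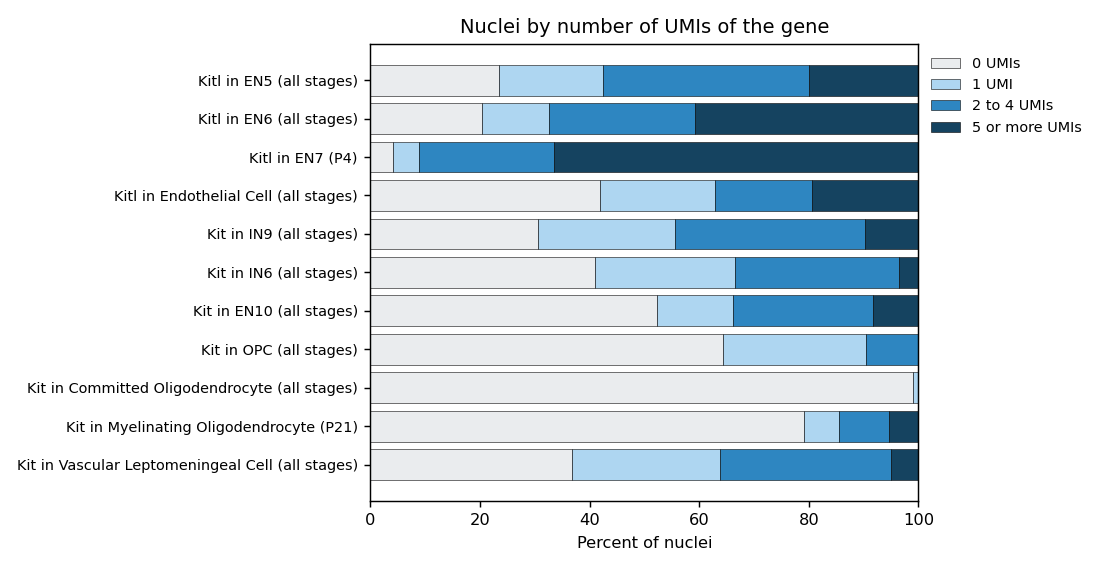
Percent of nuclei with 0, 1, 2 to 4, and 5 or more UMIs of Kitl or Kit in 11 groups. Myelinating oligodendrocytes at P21 combine 148 of 187 nuclei at 0 with 10 at 5 or more, while precursors have 0 nuclei at 5 or more.

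Dividing cells stood at 28.3 CPM of Kit at E19 and 38.5 CPM at P4, with wide intervals, and at 117 CPM at P8 (77.2 to 170.5). Their summed oligodendrocyte-lineage markers were 646, 593 and 1033 CPM at these stages, and the part of dividing precursors in the P8 level was not tested. Kit was low in astrocytes, at 15.1 CPM at E19, 5.94 CPM at P4, 8.06 CPM at P8 and 2.46 CPM at P21. Endothelial nuclei held 38 Kit UMIs in all, with 61.1 CPM at P4 (33.4 to 102.5) and 62.5 CPM over all stages (44.2 to 85.8). Microglia held 2 Kit UMIs, 1 each at P4 and P8.

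**Figure D5:**
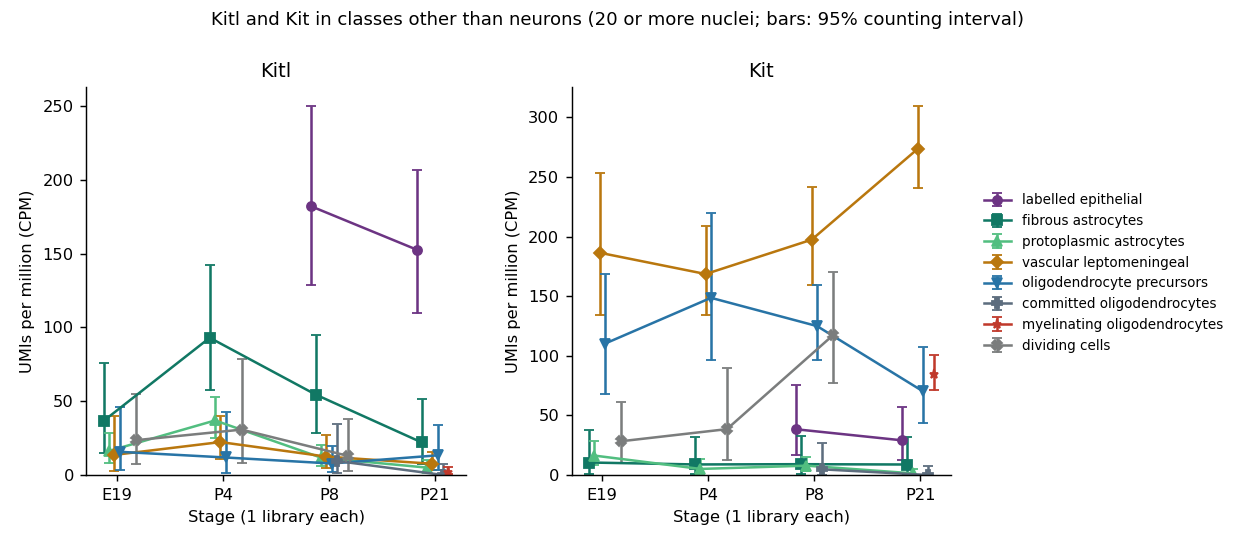
Kitl (left) and Kit (right) in CPM against stage in classes and subtypes other than neurons, with 95% counting intervals, for 20 or more nuclei. Endothelial cells and microglia, with few nuclei, are not drawn; Kit in vascular leptomeningeal cells stands at 274 CPM at P21, and committed oligodendrocytes lie near 0 beside the myelinating point of 84.9 CPM.

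The genes whose levels ran most like Kitl over the 96 neuron profiles were Hecw2 (r 0.64), a ubiquitin ligase gene, Ptger3 (0.63), a prostaglandin E receptor gene, Npl (0.62), an enzyme of sialic acid breakdown, Cttnbp2 (0.60), a cortactin-binding protein, and Mgll (0.58), which breaks down an endocannabinoid. Without EN7, over 94 profiles, they were Mgll (0.70), Hecw2 (0.68), Robo3 (0.66), an axon guidance receptor, Npl (0.66) and Nrgn (0.65), the neurogranin gene. Mgll averaged 646 CPM in EN5 and 856 CPM in EN6 but 26.6 CPM in EN7. Likewise Robo3 averaged 119 CPM in EN5, 47.2 CPM in EN6 and 0 in EN7. EN7 thus had high Kitl with little of these 2 genes.

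For Kit the genes were Kcnt2 (0.63), a potassium channel gene, Pole4 (0.61), a DNA polymerase subunit, Sulf2 (0.61), a heparan sulfate sulfatase, Cgn (0.57), the cingulin gene, and Tmem132d (0.57), a transmembrane protein. Without EN7, Rtn2 (0.59), a reticulon, took the place of Cgn. Tmem132d averaged 1917 CPM in IN9 and 902 CPM in IN6 against 174 CPM in IN1 and 108 CPM in EN10. These profiles share libraries and depth, so r is a description.

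The wider pathway was read from 70 genes in 7 groups, of which 45 reached 20 CPM at E19 or P21 in each neuron class. From E19 to P21 in excitatory neurons, 3 of these 45 were higher by 1 or more on the log2 scale and 5 lower, beside 5.35% and 10.7% of all genes, and the median was −0.014 beside −0.061 for all genes. In inhibitory neurons 3 were higher and 4 lower, beside 5.83% and 11.3%, with a median of −0.22 beside −0.037. Kit itself stood at −1.49 and −1.10 over this span on the same scale.

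Of the 4 listed relatives of Kit, Flt3, a receptor of the same family, was the 1 to reach 20 CPM. It went the opposite way to Kit in both classes. Flt3 stood at 17.2, 42.4, 57.01 and 117 CPM from E19 to P21 in excitatory neurons and at 7.72, 24.3, 39.3 and 116 CPM in inhibitory neurons. Pdgfra, under that minimum, was lower at P21 than at E19. Its log2 ratio was −0.47 (−0.70 to −0.24) in excitatory and −0.86 (−1.16 to −0.55) in inhibitory neurons. Il34, a ligand of the related receptor Csf1r, stood at 1.91 CPM at E19 and 30.1 CPM at P21 in excitatory neurons. In inhibitory neurons Il34 stood at 0.503 and 17.4 CPM, which is under the 20 CPM minimum. Mitf, a transcription factor known to act at Kit in pigment and mast cells, stood at 11.4 and 52.03 CPM in excitatory and 10.9 and 48.7 CPM in inhibitory neurons. In inhibitory neurons Pik3cb, a catalytic subunit of phosphoinositide 3-kinase, stood at 51.7 and 109 CPM.

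Of the 12 cascade kinases and Ras genes, 4 were lower by 1 or more in excitatory neurons and 3 in inhibitory neurons, beside the 10.7% and 11.3% of all genes. Hras stood at 39.98 CPM at E19 and 10.1 CPM at P21 in excitatory neurons, and at 43.3 and 10.6 CPM in inhibitory neurons. Sh2b2, an adaptor counted here among the negative regulators, stood at 59.3 and 18.6 CPM in excitatory and at 57.7 and 18.3 CPM in inhibitory neurons. Nras stood at 37.98 and 14.9 CPM in excitatory neurons, and Mapk3 at 25.8 and 10.2 CPM in inhibitory neurons. Values of these genes in excitatory neurons without EN7 differed little, with log2 ratios of −1.57 for Hras, −1.45 for Sh2b2 and −1.11 for Nras.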

How the data were processed

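Nuclear RNA of mouse superior colliculus was measured in 4 libraries, 1 per stage, each from pooled animals. Per the labels' protocols, nuclei were captured with 10x Genomics 3′ v3 chemistry, and the submitters' processing notes name Cell Ranger 3.0.2 and mm10. Per the labels' protocols, the reference was built for unspliced transcripts, so intronic reads enter the counts. The deposited matrix holds raw counts of unique molecular identifiers (UMIs) for 31053 genes and 9724 nuclei, and the per-nucleus UMI totals in the authors' table were identical to the recomputed totals in all 9724. How the authors filtered nuclei, treated doublets, integrated libraries and named classes is not given in the sources used here. Their classes and subtypes were used as deposited, with no further filter and no doublet caller. The authors' percent of mitochondrial and of ribosomal protein UMIs was left as deposited and enters no printed value, and 6 columns of reference labels and plot coordinates were not used. In all, 9 barcodes occurred in more than 1 library.

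UMIs were summed per stage and class or subtype and scaled to 1000000 UMIs of that sum (CPM). A step is the log2 ratio of the later over the earlier level after adding 5 CPM to each, so that changes of weakly expressed genes come out too small. Intervals are exact Poisson for CPM and exact Clopper-Pearson for shares, at the 95% level, and cover counting error only. With 1 library per stage there was no test and no p-value. Levels by stage were printed only for profiles of 20 or more nuclei, and smaller ones are given as UMI numbers. A count of genes past 2-fold used genes with 20 CPM or more at the higher stage. Shares thinned to 2300 UMIs per nucleus are exact expectations, and 0 nuclei were shallower. They replaced a first version from a random draw after that draw was seen to be noisy. The numbers behind a share of nuclei are UMIs without replicate libraries, and a share moves with depth.

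The members, the gene lists and the markers were chosen with earlier results of these data known. Named in addition were, by rule, the 5 genes with the highest Pearson correlation to each member over subtype and stage profiles, and the 3 largest rises and 3 largest falls from E19 to P21 within the pathway list in each neuron class. The sets EN5, EN6 and EN7 for Kitl and IN6, IN9 and EN10 for Kit, the other subtypes described one by one, and the splits of nuclei by their own UMIs were picked with their values in view. Alternatives were a pseudocount of 20 CPM, subtypes weighted alike, nuclei weighted alike, thinning, median-of-ratios scaling, the excitatory class without EN7, and each profile without its nucleus with most UMIs. The calculations were tested on simulated data. They used Python 3.11.15, numpy 2.4.6, scipy 1.17.1, pandas 2.3.3 and matplotlib 3.10.9. Gene positions came from GENCODE M21, in which 31011 gene identifiers were found.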

Additional observations from a re-analysis of the deposited data

Results flagged for a closer look

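Subtypes of the same neuron class differed in opposite directions at the same step, each beyond its counting interval, while the difference between them was not tested because each stage has 1 library. For Kitl from E19 to P4, 6 excitatory subtypes were higher, most of all EN10 at a log2 ratio of 2.48 (1.32 to 3.62), and 2 were lower, EN6 at −0.52 (−0.85 to −0.19) and EN7. From P4 to P8, EN12 was higher at 0.57 (0.058 to 1.11) and 4 were lower, most of all EN2 at −1.79 (−2.59 to −0.88). From P8 to P21, 3 were higher, most of all EN9 at 3.09, and EN6 was lower at −0.56 (−0.77 to −0.35). Among inhibitory subtypes at that step, IN7 was higher at 0.70 (0.036 to 1.38) and IN2 lower at −1.08 (−1.64 to −0.50). For Kit from P4 to P8, EN10 was higher at 1.07 (0.53 to 1.64) and EN2 lower at −0.92 (−1.72 to −0.11).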

How the results depend on the processing

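No paired analysis was possible because each stage has 1 library and no test was made. Median-of-ratios scaling, run for the 12 steps of the neuron classes, moved none beyond its counting interval. Leaving out the nucleus with most UMIs of the gene (an alternative chosen after seeing the data) moved none of the 12 steps or 8 class ratios. Weighting subtypes alike used those with 20 or more nuclei at both stages. EN7 and EN11 thus entered the excitatory step from E19 to P4 but none of the later ones. With this weighting, 4 steps changed sign: Kitl in excitatory neurons from E19 to P4 (−0.16) and from P8 to P21 (0.0096), and Kit in inhibitory neurons from E19 to P4 (0.13) and from P4 to P8 (−0.14). The same weighting gave −0.18 for Kitl in excitatory neurons from P4 to P8, −0.31 and −0.98 for Kit in excitatory neurons from E19 to P4 and from P8 to P21, −0.86 for Kit in inhibitory neurons from P8 to P21, and inhibitory over excitatory ratios of −3.33 for Kitl at E19 and 0.61 for Kit at P4. Without EN7, the excitatory Kitl steps were 0.76 from E19 to P4 and 0.57 from P4 to P8, the latter with the opposite sign, and the inhibitory over excitatory ratio of Kitl was −1.15 at E19 and −0.90 at P4. With nuclei weighted alike, and by construction also after thinning, the excitatory Kitl step from P4 to P8 was −0.55 and the class ratio at P4 was −2.01. A pseudocount of 20 CPM, which shrinks every ratio by its construction, gave 1.23 and 0.59 for Kitl from E19 to P4 in excitatory and inhibitory neurons, −0.80 and −0.80 for Kit from P8 to P21 in the same classes, and Kitl class ratios of −1.16, −1.81, −1.49 and −1.60 at E19, P4, P8 and P21. The causes of the other shifts were not tested. Of 195 levels, 16 left their counting interval with nuclei weighted alike and 2 without their nucleus with most UMIs, namely Kitl in EN3 at P8 (4.48 CPM) and Kit in IN11 at P4 (20.6 CPM). Depth limits profiles of few nuclei: 0 Kitl UMIs in EN9 at E19 allowed up to 16.9 CPM by the exact interval.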

Other observations

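Within the myelinating oligodendrocytes of the P21 library, the nuclei with 2 or more Kit UMIs differed from those with 0 in other genes. Of the lineage markers in the 27 nuclei with 2 or more UMIs and the 148 with 0, Mog stood at 2243 and 2169 CPM and Olig1 at 108 and 104 CPM, within counting error. Mbp and Mobp, genes of myelin proteins, were higher in the first beyond counting error, at 9939 and 8469 CPM and at 5429 and 4023 CPM. The 6 markers of the lineage summed to 17787 and 14811 CPM. Hapln2, a link protein of the nodal matrix, stood at 3.27 CPM in the first and 222 CPM in the second, and Enpp6, a gene known from newly formed oligodendrocytes, had 0 and 167 UMIs. Slco3a1, Agmo and Piezo2 were also among the 5 genes that were lowest beside Kit, at 16.4, 3.27 and 0 CPM against 340.0, 111 and 104 CPM. Prom1, the prominin gene, stood at 481 and 45.0 CPM, Abr at 484 and 68.3 CPM, Fam155a at 2731 and 422 CPM, and Jcad at 137 and 15.6 CPM. The first group was deeper, with a median of 11543 UMIs against 7621.5. All nuclei came from 1 library, so these are differences between nuclei of that library, and the split was made after the values were seen.

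In endothelial nuclei the same split for Kitl, at 2 or more UMIs against 0, separated 23 from 26 nuclei, pooled over the 4 libraries. In stage order 3, 10, 6 and 4 nuclei had 2 or more UMIs, and 5, 7, 8 and 6 had 0. The 4 endothelial markers summed to 7138 CPM in the first and 2277 CPM in the second. Vascular leptomeningeal markers ran the opposite way, at 62.99 and 450.2 CPM, and so did neuron markers, at 111 and 277 CPM. Oligodendrocyte-lineage markers stood nearly level, at 96.9 and 95.2 CPM. The 5 genes that were highest beside Kitl began with Lrmda, at 167 and 0 CPM, Tmeff1, at 104 and 0 CPM, and S1pr1, at 102 and 0 CPM. The others were Vegfc, at 283 and 8.66 CPM, and Sox17, at 213 and 8.66 CPM, both known from endothelium. Acta2 and Actg2, the smooth muscle actin genes, had 0 UMIs beside Kitl and stood at 320.3 and 242 CPM in nuclei without it. The other 3 of the 5 lowest were Egr1, at 0 and 182 CPM, Bmpr1b, at 0 and 164 CPM, and Myoc, at 2.42 and 208 CPM. The median depth was 15132 UMIs in the first and 3687.5 in the second, and the parts of depth, of the libraries and of RNA of other cells in this split were not tested.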
